A study of Homo sapiens with 12 samples.

Results

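Collagen chain genes were described across RNA sequencing libraries of LMSU, a human gastric cancer cell line with the R175H mutation of p53 per the labels. The members were every gene in the count table whose symbol is COL, a number, A and a number, which gave 44 of the 25435 symbols. They were grouped as fibrillar (11 genes), basement membrane (the 6 chains of type IV) and other (27 genes). The 12 libraries formed 6 groups of 2 in 2 arms. In the knockout arm, labelled without doxycycline, cells with a GFP-marked control construct (V2, the knockout control) were compared with cells that carried a GFP-marked construct named sg-1 and are marked as lacking the mutant p53 (the p53 knockout). The knockdown arm, which received doxycycline per the labels, held p53 shRNA 1, p53 shRNA 2 and, as controls that keep p53, a scramble hairpin and vector. Both arms start from the same line, and the labels name 1 knockout construct and give neither clones nor separate cultures. The p values therefore measure only the spread between these libraries, which may be technical.

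Collagens are secreted proteins of the extracellular matrix whose chains wind around each other as a helix. Fibrillar collagens (types I, II, III, V, XI, XXIV and XXVII) build the fibres of connective tissue, and type IV chains assemble into the sheet of the basement membrane on which epithelia rest. The remaining types decorate fibrils, link cells to the matrix or form networks, beaded filaments and anchoring fibrils. In stomach tissue fibroblasts are the usual source of fibrillar collagen, and epithelial cells contribute basement membrane chains.

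Library totals ran from 9738094 to 16823246 counts. Libraries of a group varied more in the knockout arm (biological coefficient of variation 15.6%) than in the knockdown arm (3.08%). The epithelial markers EPCAM and CDH1 never exceeded 2 counts in a library, and TFF1 and TFF2, made by gastric surface and neck cells, were at 0 throughout, while KRT8, KRT18, KRT7, MUC1 and CLDN4 passed the filter on low counts. The epithelial markers summed to 259 to 378 CPM over the knockout-arm libraries and 379 to 467 CPM over the knockdown-arm libraries, nearly all of it from the keratins KRT8 and KRT18. All 12 mesenchymal markers, collagens left out, passed the filter, with a sum of 8540 to 10400 CPM (counts scaled to a common library size with TMM factors) over the knockout-arm libraries and of 29500 to 44200 CPM over the knockdown-arm libraries. Most of it came from VIM (6810 to 9390 and 13400 to 16400 CPM in the 2 arms) and FN1 (536 to 988 and 9980 to 25200 CPM). POSTN was low, at 0.696 to 2 CPM in the knockout arm. Endothelial and blood markers summed to at most 1.78 and 0.374 CPM. In bulk RNA, fewer cells of a kind and less RNA per cell cannot be told apart.

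The promoter stretches below belong to members called with a hairpin against scramble in the results that follow: the divergent COL4A1 and COL4A2 pair, whose genes start 127 bases apart on opposite strands, and COL13A1 and COL7A1. They come from RefSeq on GRCh38.p14, whereas the counts were made on hg19. Capitals mark matches, on either strand, to CCAAT (the textbook box of NF-Y), to TATAAA (of TBP) and to GGGCGG (of SP1). The first runs from the start of COL4A1 (minus strand) to the start of COL4A2 (plus strand) on chr13:110307157-110307284 and is written on the plus strand. The others are the 250 bases before the start of COL13A1 (chr10:69801656-69801905, plus strand) and of COL7A1 (chr3:48595330-48595579, minus strand, written 5′ to 3′ along the gene).
COL4A1-COL4A2: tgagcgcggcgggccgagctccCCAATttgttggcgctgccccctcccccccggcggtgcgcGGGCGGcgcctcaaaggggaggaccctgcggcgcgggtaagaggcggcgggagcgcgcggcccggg
COL13A1: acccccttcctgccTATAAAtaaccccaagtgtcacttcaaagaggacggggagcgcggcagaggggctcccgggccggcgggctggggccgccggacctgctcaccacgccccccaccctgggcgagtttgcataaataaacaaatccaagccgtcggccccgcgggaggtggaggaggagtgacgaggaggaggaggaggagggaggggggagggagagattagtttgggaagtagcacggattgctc
COL7A1: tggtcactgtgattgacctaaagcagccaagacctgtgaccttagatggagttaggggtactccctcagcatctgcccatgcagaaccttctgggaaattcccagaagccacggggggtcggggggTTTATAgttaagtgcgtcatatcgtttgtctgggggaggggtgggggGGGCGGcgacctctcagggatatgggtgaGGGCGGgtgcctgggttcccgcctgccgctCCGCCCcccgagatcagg

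The shared stretch of the type IV pair held 1 CCAAT and 1 GGGCGG match and no TATAAA match, the COL13A1 stretch held 1 TATAAA match, and the COL7A1 stretch held 1 TATAAA and 3 GGGCGG matches. RefSeq promoters were found for 32 of the 44 members, in 44 windows, and in every window only the 250 bases before the start were searched. CCAAT occurred in 12 of these windows (27.3%) against 32% of the 35116 windows of all genes, TATAAA in 8 (18.2%) against 10.7%, and GGGCGG in 24 (54.5%) against 42.6%. The other type IV genes are also laid out head to head, with 419 bases between the starts of COL4A4 and COL4A3 on chromosome 2 and 380 bases between those of COL4A6 and COL4A5 on chromosome X. A match describes the letters only. COL4A1 and COL4A2, which share the first stretch, did not keep a fixed ratio of transcripts across the libraries.

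Collagen transcripts took 0.756% and 0.763% of all counts for the knockout control and 0.876% and 0.861% for the knockout. In the knockdown arm the shares were 2.85% and 2.79% (scramble), 2.75% and 2.75% (vector), 2.89% and 3.07% (shRNA 1) and 2.43% and 2.46% (shRNA 2). The exact (Clopper-Pearson) 95% interval of the first was 0.752% to 0.761%, and of the 3.07% it was 3.06% to 3.08%; these cover counting error only. The 2 arms did not overlap, and within the knockdown arm shRNA 2 was lowest. Of the 44 genes, 26 passed the filter on low counts (8 of 11 fibrillar, 4 of 6 type IV and 14 of 27 other). Of the 18 that did not, COL6A5, COL9A1 and COL22A1 had 0 counts in every library, and 15, these included, never exceeded 5 counts. The highest count among them was 13, for COL15A1 in 1 knockout library. A count of 0 allows up to 3 counts in that library, so for these genes a difference between groups was not detectable at this depth. Of the genes that passed, 23 reached the minimum in every library. COL10A1 passed through 3 libraries of scramble and shRNA 2, COL9A3 through 2 of the knockout arm and COL4A4 through 8, so a difference in these genes is partly built into the filter.

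Per kilobase of transcript, the scale on which genes can be compared, the leading chains differed between the arms. In scramble the type I chains led, COL1A2 at 1250 and COL1A1 at 908 CPM per kb, and in vector at 1180 and 981. In the knockout control the type VI chain COL6A2 led at 269, ahead of COL1A1 (233), COL1A2 (158) and COL6A1 (155), and in the knockout COL1A1 (258) and COL6A2 (243) preceded COL1A2 (183). Averaged over all libraries, which mixes the arms, COL6A3 stood at 447, COL3A1 at 321, COL5A1 at 233 and COL5A2 at 86.5 CPM per kb. COL7A1, which forms the anchoring fibrils under epithelium, averaged 54.7 CPM per kb. The most abundant type IV chain, COL4A2, averaged 16.2 and COL4A1 5.1 CPM per kb. Levels ranged over orders of magnitude within each class: COL11A2 and COL24A1, also fibrillar, averaged 0.329 and 0.455 CPM per kb.

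**Figure D1:**
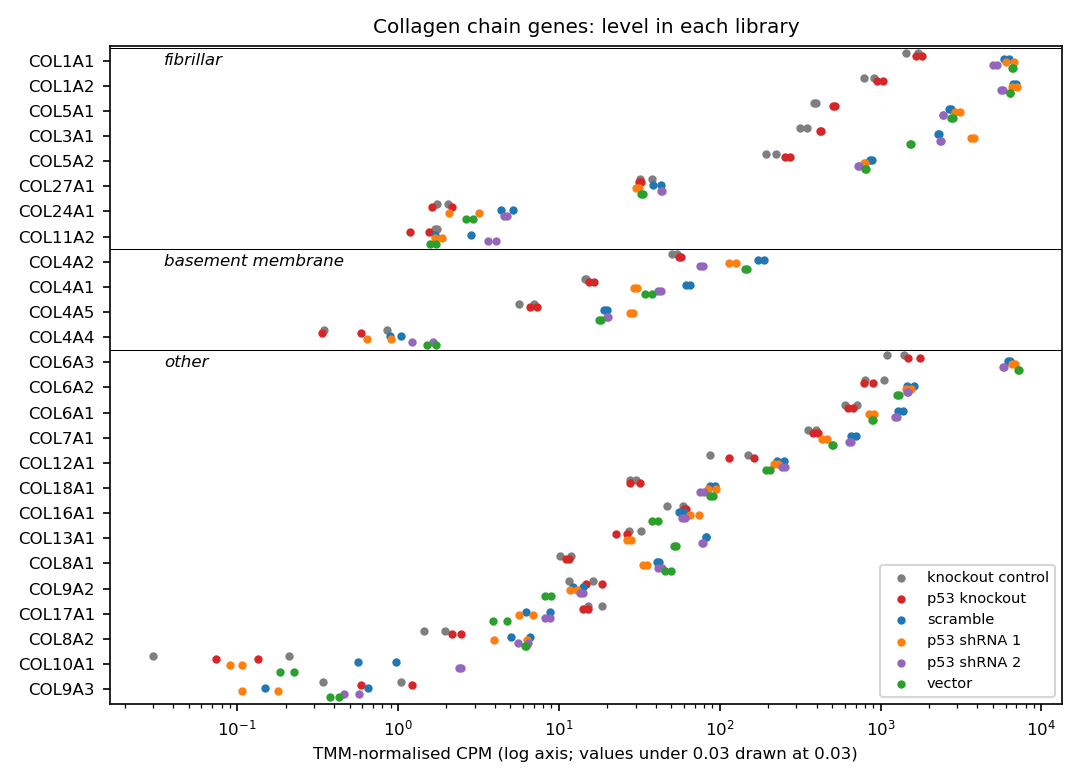
Level of the 26 tested collagen genes in each library, as TMM-normalised CPM on a log axis, by class; each point is 1 library and colours mark the 6 groups. The 4 knockout-arm libraries lie left of the knockdown arm for most genes, and COL17A1 lies right of it.

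In the p53 knockout, no collagen gene passed the test against its control. Here and in every comparison the adjusted p is that of edgeR's quasi-likelihood test with Benjamini-Hochberg adjustment, and a gene was called below 0.05. The major fibrillar chains COL1A1, COL1A2, COL3A1, COL5A1 and COL5A2 all had higher mean levels there. COL5A1, which nucleates fibrils of type I collagen, read 384 and 397 CPM in the control and 522 and 505 CPM in the knockout. COL3A1, the type III chain, read 348 and 317 CPM against 425 and 420 CPM. COL5A2 read 194 and 223 CPM against 272 and 253 CPM. The log2 fold changes of COL5A1, COL3A1 and COL5A2 were 0.39 (adjusted p = 0.14), 0.34 (0.28) and 0.33 (0.44). COL1A2 read 915 and 794 CPM against 949 and 1030 CPM (log2 0.21, adjusted p = 0.76), and COL1A1 overlapped, with 1710 and 1430 CPM against 1650 and 1820 CPM. Of the minor fibrillar chains, COL11A2 (log2 -0.32, adjusted p = 0.8) and COL27A1 (-0.13, 0.79) had lower means, and COL24A1 stood at 0.02 (0.98). COL6A3, the long type VI chain, read 1100 and 1390 CPM against 1750 and 1490 CPM (log2 0.37, adjusted p = 0.55).

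Type IV was close to its control in the knockout. COL4A1 read 14.7 and 14.6 CPM against 16.6 and 15.3 CPM, and COL4A2 54.5 and 50.5 CPM against 57.2 and 56.2 CPM, log2 changes of 0.12 and 0.11. COL13A1, a transmembrane collagen of cell junctions, read 32.6 and 27.5 CPM against 22.6 and 26.5 CPM (log2 -0.29, adjusted p = 0.73). Over the 26 tested genes the edgeR count of calls was 0, with 0.015% of all tested genes called (0.00748% higher and 0.00748% lower). At an unadjusted p below 0.05 there were 6 genes, limma-voom called 0, and DESeq2 called 1 (COL5A1, log2 0.40, adjusted p = 0.021). The median log2 change was 0.11 for the collagens and 0.18 for the fibrillar ones, against -0.01 for all 13365 tested genes. Of the 12 mesenchymal markers 1 was called, higher, with a median of 0.41, and their part in the collagen values was not tested. The count of called collagens depended on the control libraries and rose when either was left out, in fits with 1 control library. The 2 control libraries differed most of all groups (chi-square per degree of freedom against sampling noise 34.4, and 10 in the knockout). In them COL12A1 read 87.7 and 149 CPM and COL6A2 1050 and 805 CPM. The share of all tested genes called by DESeq2 or in those fits is not given here. Without knockout control replicate 1 the genes called were COL3A1 and COL5A1 (log2 0.42 and 0.37). Without replicate 2 they were COL3A1 (0.28), COL5A1 (0.42), COL5A2 (0.43), COL6A3 (0.55) and COL12A1 (0.66), which were higher. COL6A2 (-0.32) and COL13A1 (-0.41) were called lower there.

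With the hairpins, the number of collagen genes called differed between hairpins and between controls, as did the share of all tested genes called. Against scramble, shRNA 1 gave 10 calls of 26 (2 higher and 8 lower). Of all tested genes 9.41% were called there, 4.4% higher and 5.01% lower. shRNA 2 gave 3 (1 higher and 2 lower) against a background of 7.74%, 3.58% higher and 4.15% lower. Against vector, shRNA 1 gave 5 (3 higher and 2 lower) with 13% of all genes called, 5.78% higher and 7.26% lower. shRNA 2 gave 13 (11 higher and 2 lower) with 21% called, 9.21% higher and 11.7% lower. Of the tested collagens these were 38.5% and 11.5% for shRNA 1 and shRNA 2 against scramble, and 19.2% and 50% against vector. The counts for shRNA 2 against scramble and shRNA 1 against vector are near the share of all genes. The median collagen log2 change was -0.23 and -0.01 against scramble and -0.03 and 0.27 against vector, with a median of 0 over all genes each time. Among the 23 genes at the minimum count in every library, which leaves out COL10A1, the calls were 9 and 2 against scramble and 5 and 12 against vector. With the knockdown arm alone, whose libraries varied less, shRNA 1 against scramble gave 15 calls (5 higher and 10 lower), shRNA 2 against scramble gave 10 calls (2 higher and 8 lower), shRNA 1 against vector 15 (8 higher and 7 lower) and shRNA 2 against vector 21 (14 higher and 7 lower). The share of all tested genes called in that fit is not given here, so these counts have no background beside them. Each hairpin's 2 comparisons share its own libraries, and the hairpins share both controls. The test loses precision when a group is left with 1 library. The count for shRNA 1 against scramble fell to 6 without any 1 of its 4 libraries, and that for shRNA 2 against vector fell to 6 without vector replicate 1, 7 without vector replicate 2 or shRNA 2 replicate 1, and 8 without shRNA 2 replicate 2. The count for shRNA 2 against scramble fell to 1 without shRNA 2 replicate 1.

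**Figure D2:**
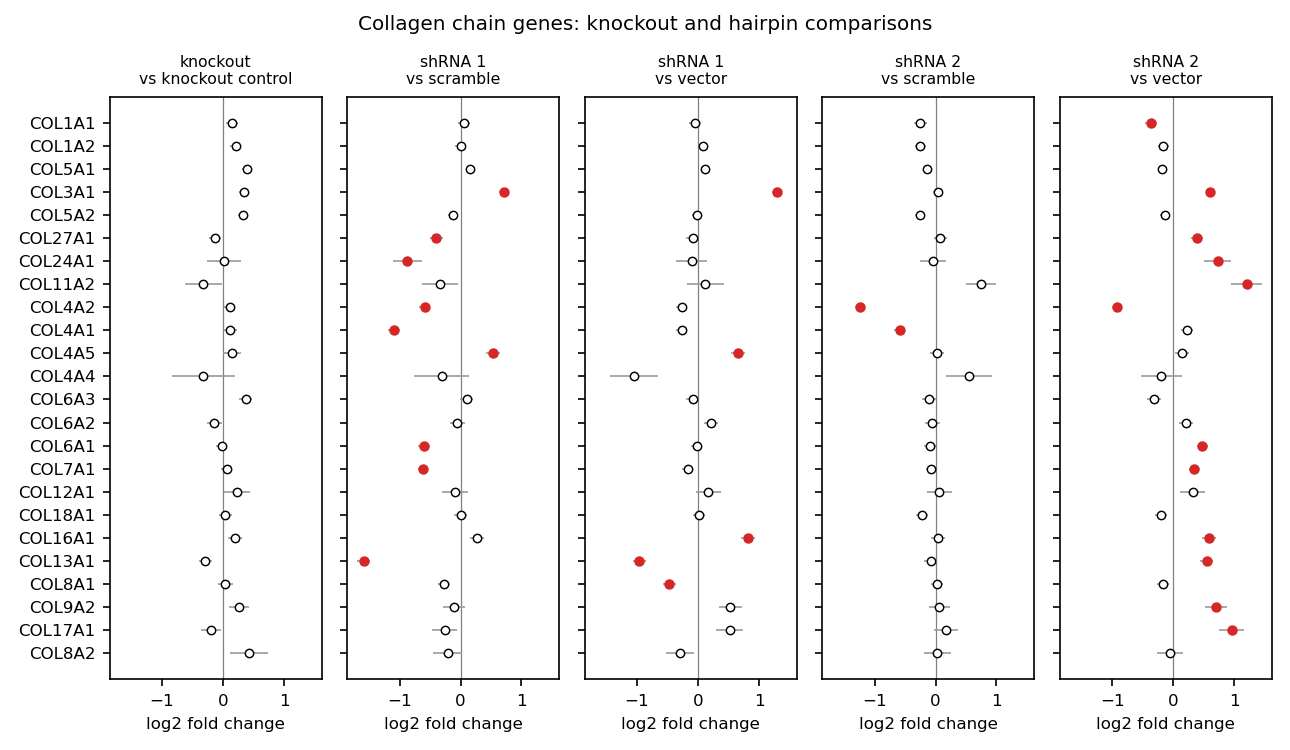
Log2 fold change with its SE for the collagen genes in the knockout and the 4 hairpin comparisons; filled red points passed edgeR's adjusted p of 0.05, open points did not. COL9A3 and COL10A1, near the detection limit, are left out; COL4A1 and COL4A2 were called lower with each hairpin against scramble, and COL13A1 was called lower with shRNA 1 against either control.

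The type IV pair fell with both hairpins against scramble, COL4A1 further with shRNA 1 and COL4A2 further with shRNA 2. COL4A1 read 65.4 and 62 CPM in scramble (mean 63.7 ± 2.43 SD, n = 2), 30.5 and 29.3 CPM with shRNA 1, 41.4 and 43.2 CPM with shRNA 2, and 34.5 and 37.7 CPM in vector. Scramble was the highest group, and the 3 others were within 29.3 to 43.2 CPM. COL4A1 was 2.13-fold lower than scramble with shRNA 1 (log2 -1.09 ± 0.0946 SE, adjusted p = 7.3e-05) and 1.5-fold lower with shRNA 2 (log2 -0.59 ± 0.0914 SE, adjusted p = 0.003). Against vector it passed with neither hairpin (log2 -0.27 and 0.23). The shRNA 2 call was lost without shRNA 2 replicate 1 (adjusted p = 0.054).

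COL4A2 read 189 and 173 CPM in scramble, 115 and 126 CPM with shRNA 1, 75.3 and 78.3 CPM with shRNA 2, and 147 and 143 CPM in vector. No groups overlapped, and shRNA 2 was lowest. The gene was 1.5-fold lower than scramble with shRNA 1 (log2 -0.59, adjusted p = 0.0021) and 2.36-fold lower with shRNA 2 (log2 -1.24 ± 0.0884 SE, adjusted p = 3.0e-05). Against vector it was 1.89-fold lower with shRNA 2 (log2 -0.92, adjusted p = 3.0e-05), while shRNA 1 did not pass (log2 -0.27, adjusted p = 0.062). An antisense gene, COL4A2-AS1, overlaps COL4A2, and whether the counting used strand is not given in the sources used here, so reads of the pair cannot be told apart. COL4A2-AS1 itself stood at 6.58 CPM in scramble, 3.29 with shRNA 1, 2.9 with shRNA 2 and 4.49 in vector (log2 -0.99 and -1.18 against scramble, adjusted p = 0.0057 and 0.0024). The shRNA 1 call was lost without scramble replicate 1 or shRNA 1 replicate 2.

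COL4A5, a chain of the type IV network in specialised basement membranes, moved the other way with shRNA 1. It read 27.9 and 28.9 CPM, against 19.2 and 20 CPM in scramble, 18.3 and 17.9 CPM in vector, and 19.9 and 20.2 CPM with shRNA 2. shRNA 1 alone stood apart in the knockdown arm. The rise passed against scramble (log2 0.53, adjusted p = 0.014) and against vector (log2 0.65, adjusted p = 0.0038); the first call was lost without any 1 of the 4 libraries, the other without vector replicate 2. COL4A4 stood at 1.73 CPM or less and passed with neither hairpin.

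Among the fibrillar chains, COL3A1 was called in most hairpin comparisons. It read 3670 and 3820 CPM with shRNA 1, 2360 and 2330 CPM with shRNA 2, 2300 and 2280 CPM in scramble, and 1520 and 1550 CPM in vector. Libraries with shRNA 1 were highest and vector lowest, with shRNA 2 beside scramble. COL3A1 was 1.64-fold higher with shRNA 1 than in scramble (log2 0.71 ± 0.0743 SE, adjusted p = 2.8e-04) and 2.44-fold higher than in vector (log2 1.29, adjusted p = 4.6e-06). With shRNA 2 it was 1.53-fold higher than in vector (log2 0.61, adjusted p = 1.5e-04) and did not pass against scramble (log2 0.04, adjusted p = 0.84). These calls were kept without each library in turn.

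The type I chains moved little. COL1A1 read 6330 and 5890 CPM in scramble, 6040 and 6740 CPM with shRNA 1, 4970 and 5280 CPM with shRNA 2, and 6630 and 6570 CPM in vector. It was lowest with shRNA 2, where the difference from vector passed (log2 -0.36, adjusted p = 0.025) and was lost without any 1 of the 4 libraries. COL1A2 read 6920 and 6630 CPM in scramble, 6550 and 7010 CPM with shRNA 1, 5640 and 5780 CPM with shRNA 2, and 6400 and 6390 CPM in vector, and no hairpin comparison passed. COL5A1 lay between 2450 and 3120 CPM in the knockdown arm and COL5A2 between 729 and 885 CPM, also with no call against a control.

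The minor fibrillar chains COL27A1, COL24A1 and COL11A2 were called at much lower levels. COL27A1, a chain of cartilage, read 42.9 and 38.7 CPM in scramble and 42.9 and 43.6 CPM with shRNA 2, above the 30.2 and 31.5 CPM with shRNA 1 and the 33.4 and 32.4 CPM in vector. It was lower with shRNA 1 than in scramble (log2 -0.40, adjusted p = 0.036) and higher with shRNA 2 than in vector (log2 0.39, adjusted p = 0.019). COL24A1 was likewise higher in scramble and with shRNA 2 than with shRNA 1 or in vector, with 4.37 and 5.17 CPM in scramble, 2.07 and 3.21 CPM with shRNA 1, 4.75 and 4.54 CPM with shRNA 2, and 2.94 and 2.66 CPM in vector (log2 -0.87 for shRNA 1 against scramble, adjusted p = 0.042, and 0.73 for shRNA 2 against vector, adjusted p = 0.036). COL11A2 read 4.09 and 3.62 CPM with shRNA 2, above the 1.58 and 1.73 CPM in vector (log2 1.21, adjusted p = 0.006). The calls of COL27A1 and COL24A1 were lost without any 1 of their 4 libraries. That of COL11A2 was lost without vector replicate 1 or shRNA 2 replicate 1.

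Of the other collagens that reached the minimum count in every library, COL13A1 had the largest fold change with shRNA 1 against scramble. It read 82.2 and 82.1 CPM in scramble, 26.7 and 28.1 CPM with shRNA 1, 77.4 and 78.3 CPM with shRNA 2, and 52.3 and 53.9 CPM in vector. In the knockdown arm only the shRNA 1 libraries lay within the range of the knockout arm, which read 22.6 to 32.6 CPM. COL13A1 was 3-fold lower with shRNA 1 than in scramble (log2 -1.59 ± 0.11 SE, adjusted p = 1.5e-05) and 1.94-fold lower than in vector (log2 -0.96, adjusted p = 2.7e-04). With shRNA 2 it did not pass against scramble (log2 -0.08, adjusted p = 0.74) and was higher than in vector (log2 0.55, adjusted p = 0.0028). Leaving out single libraries changed none of these 3 calls.

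COL6A1 and COL7A1 had a like profile of smaller size. COL6A1, a type VI chain, read 1370 and 1290 CPM in scramble, 849 and 913 CPM with shRNA 1, 1230 and 1260 CPM with shRNA 2, and 903 and 887 CPM in vector. COL7A1 read 709 and 654 CPM in scramble, 432 and 463 CPM with shRNA 1, 636 and 651 CPM with shRNA 2, and 507 and 501 CPM in vector. Both were high in scramble and with shRNA 2 and low with shRNA 1 and in vector. With shRNA 1, COL6A1 was 1.51-fold (log2 -0.60, adjusted p = 0.0026) and COL7A1 1.52-fold (log2 -0.61, adjusted p = 0.0014) lower than in scramble. Against vector, shRNA 1 left neither called (log2 -0.02 and -0.17), and shRNA 2 was higher for COL6A1 (log2 0.48, adjusted p = 0.0034) and COL7A1 (log2 0.35, adjusted p = 0.012). The last of these was lost without any 1 of the 4 libraries. COL6A2, the partner chain of COL6A1, read 1270 to 1610 CPM in the knockdown arm with no call, and COL6A3 read 5740 to 7230 CPM with no call.

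**Figure D3:**
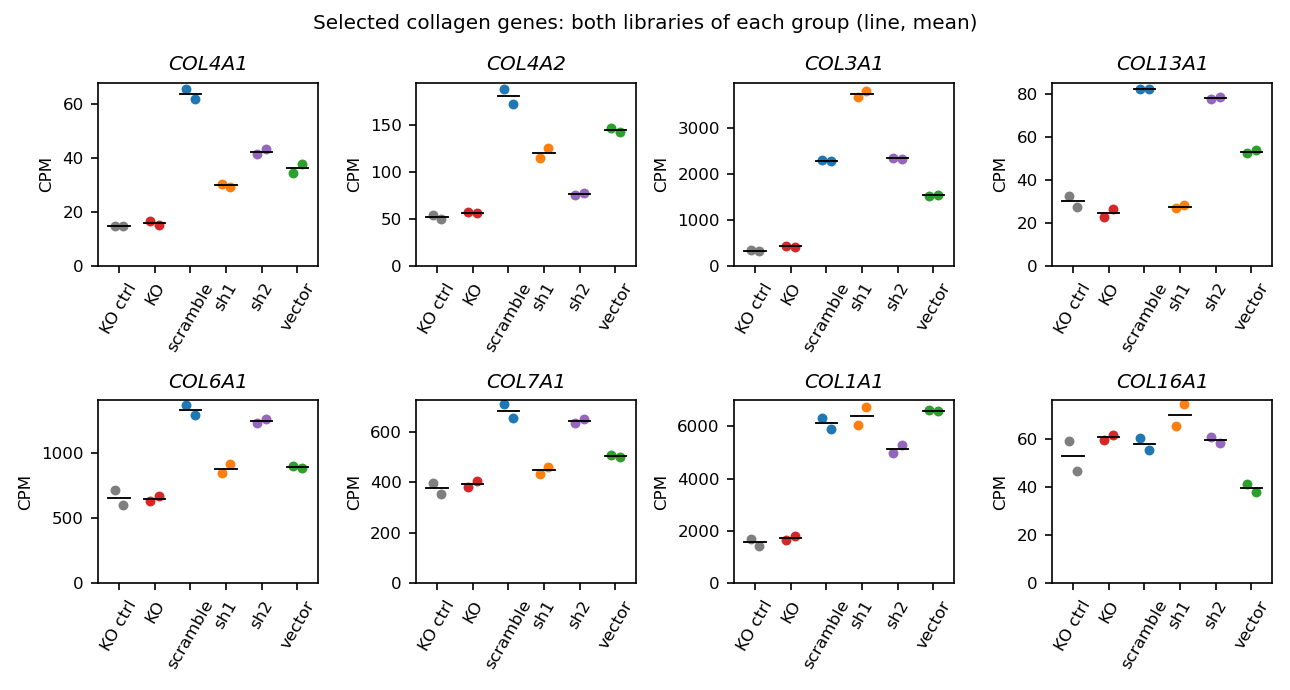
Level of 8 collagen genes in both libraries of each group (points) with the group mean (line), in TMM-normalised CPM on linear axes from 0. COL4A1 peaks in scramble, COL3A1 with shRNA 1, and COL13A1, COL6A1 and COL7A1 are high in scramble and with shRNA 2.

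COL16A1, a fibril-associated chain, read 65.6 and 74.5 CPM with shRNA 1, 61 and 58.6 CPM with shRNA 2, and 60.3 and 55.7 CPM in scramble, above the 41.3 and 38.2 CPM in vector. It was higher than vector with shRNA 1 (log2 0.82, adjusted p = 0.0013) and shRNA 2 (log2 0.59, adjusted p = 0.0045) and passed against scramble with neither. The shRNA 2 call was lost without vector replicate 2. COL9A2 and COL17A1, a hemidesmosome component of epithelia, were also higher with shRNA 2 than in vector, the lowest group of the knockdown arm for both. Scramble read 12.3 and 14.2 CPM for COL9A2 and 8.81 and 6.29 CPM for COL17A1. Against scramble shRNA 2 was not called (log2 0.06 and 0.17). Over vector, COL9A2 with shRNA 2 read 13.6 and 14.2 CPM against 8.97 and 8.16 CPM (log2 0.70, adjusted p = 0.017), and COL17A1 read 8.76 and 8.23 CPM against 3.92 and 4.76 CPM (log2 0.96, adjusted p = 0.006). The first was lost without any 1 of the 4 libraries and the other without vector replicate 1. COL8A1, a network chain, was lower with shRNA 1 than in vector, at 33.3 and 35.3 CPM against 49.6 and 45.5 CPM (log2 -0.47, adjusted p = 0.011). That call was lost without shRNA 1 replicate 1 or 2 or vector replicate 1. COL12A1, COL18A1 and COL8A2 had no call with a hairpin.

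COL10A1, the network collagen of growth plate cartilage, is best given in counts. It had 30 and 31 counts with shRNA 2, 7 and 13 in scramble, 1 and 1 with shRNA 1, 3 and 3 in vector, 3 and 0 in the knockout control, and 1 and 2 in the knockout. The summed counts, scaled by library size, gave a ratio of 3.11 for shRNA 2 over scramble (95% exact counting interval 1.85 to 5.44) and 11.9 over vector (5.15 to 33.6). The ratio of shRNA 1 over scramble was 0.126 (0.0142 to 0.517). Because the gene passed the filter only through scramble and shRNA 2, where it is high, these ratios are a description, and its edgeR calls are counted above without being read as tests.

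The 2 controls of the knockdown arm, which both keep p53 per the labels, also differed from each other. Scramble was higher than vector for 10 of 26 collagens and lower for 0, with 15.3% of all tested genes called, 7.1% higher and 8.16% lower. The largest changes among the abundant genes were COL4A1 (log2 0.82, adjusted p = 1.4e-04), COL13A1 (0.63, 0.0017), COL3A1 (0.58, 3.5e-04), COL6A1 (0.57, 0.0016) and COL16A1 (0.55, 0.0094). COL4A2, COL7A1, COL9A2, COL17A1 and COL24A1 were the other 5. With the knockdown arm alone, scramble against vector gave 18 calls, 15 higher and 3 lower, so that lower calls appeared in that fit. Its share of all tested genes called is not given here. Without vector replicate 2 or scramble replicate 1 the count was 4, and without vector replicate 1 it was 5; the calls of COL4A1, COL13A1, COL3A1 and COL6A1 held each time. Of the 12 mesenchymal markers, 6 were higher and 1 lower in scramble than in vector, and 7 were higher and 1 lower with either hairpin than in vector. Against scramble 0 were higher and 2 lower with shRNA 1, and 2 were higher and 1 lower with shRNA 2. The share of all tested genes called with shRNA 1 and shRNA 2 was 13% and 21% against vector, and 9.41% and 7.74% against scramble. The part of these markers in the collagen differences was not tested.

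Compared directly, shRNA 1 and shRNA 2 differed in 12 of 26 collagens, 4 higher and 8 lower with shRNA 1 (14.3% of all tested genes called, 7.07% higher and 7.21% lower). COL13A1 was 2.84-fold lower with shRNA 1 (log2 -1.51, adjusted p = 3.2e-05), and COL7A1 (-0.53, 0.0021), COL6A1 (-0.50, 0.0045) and COL4A1 (-0.50, 0.0054) were lower too. COL3A1 (0.68, 2.2e-04), COL4A2 (0.65, 8.3e-04), COL4A5 (0.50, 0.013) and COL5A1 (0.30, 0.018) were higher. The count was 5 to 7 without any 1 of the 4 libraries, and COL3A1, COL4A2, COL7A1 and COL13A1 were called each time. With the knockdown arm alone it was 20, 10 in each direction, and the share of all tested genes called in that fit is not given here.

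Ratios between chains that assemble together do not depend on the scaling of a library. The count of COL4A2 per count of COL4A1 was 1.82 and 1.81 with shRNA 2, 2.89 and 2.79 in scramble, 3.78 and 4.28 for shRNA 1, and 4.28 and 3.81 in vector. Knockout control libraries had 3.69 and 3.45, and knockout libraries 3.44 and 3.68. The ratio was lowest with shRNA 2 and overlapped between shRNA 1 and vector and between the groups of the knockout arm. COL6A1 per COL6A2 was 0.595 and 0.591 with shRNA 1, below every other library (0.68 to 0.888). COL1A2 per COL1A1 was 0.537 to 0.576 in the 4 knockout-arm libraries and 0.966 to 1.14 in the 8 knockdown-arm libraries. COL5A2 per COL5A1 had the opposite order, at 0.501 to 0.561 and 0.258 to 0.322. The p53 groups within an arm differed less in these last ratios than the arms did.

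**Figure D4:**
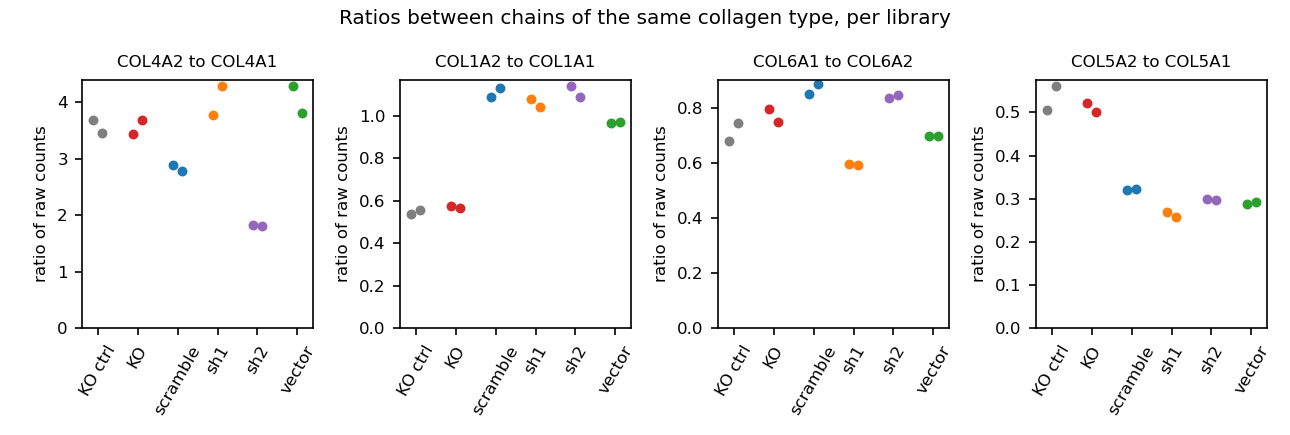
Ratio of raw counts of 2 chains of the same collagen type, 1 point per library, on linear axes from 0. COL4A2 to COL4A1 is lowest with shRNA 2 (1.82 and 1.81), and the type I and type V ratios separate the knockout arm from the knockdown arm.

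The knockout effect was compared with the mean effect of the hairpins over scramble in 1 test. Of 26 collagens, 3 differed, all higher in the knockout comparison (1.1% of all tested genes called, 0.643% higher and 0.456% lower). They were COL4A2 (difference of log2 changes 1.02 ± 0.117 SE, adjusted p = 0.0032), COL4A1 (0.96 ± 0.131, adjusted p = 0.0065) and COL5A2 (0.52 ± 0.109, adjusted p = 0.047). COL4A2 and COL4A1 changed by 0.11 and 0.12 in the knockout and by -0.91 and -0.84 on average with the hairpins. COL5A2 stood at 0.33 and -0.19. The count rose without either knockout control library and fell without scramble replicate 1, in fits with 1 library in a group. The share of all tested genes called in those fits is not given here. COL4A2 was called without each of the 10 libraries in turn, COL4A1 was lost without scramble replicate 1 (adjusted p = 0.058), and COL5A2 was lost without 8 of the 10. Scramble was the highest group for both type IV chains, and the same difference with vector as the control was not tested. Of the mesenchymal markers 2 differed, both higher in the knockout comparison.

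The controls of the arms were also compared. Against the mean of scramble and vector, the knockout control was lower for 19 and higher for 2 of the 26 collagens, with 67.7% of all tested genes called, 34.8% higher and 33% lower. COL1A2, at 915 and 794 CPM against 6390 to 6920 CPM, was 7.7-fold lower (log2 -2.95 ± 0.0888 SE, adjusted p = 5.8e-10). COL5A1 was 7.01-fold, COL3A1 5.63-fold, COL6A3 5.38-fold, COL1A1 4.05-fold and COL5A2 4.02-fold lower. Of the type IV chains, COL4A1 was 3.26-fold and COL4A2 3.09-fold lower, and COL4A5 was also called lower. COL4A4 was called lower too, but it passed the filter through 8 libraries, so its difference is partly built into the filter. Among the 23 genes at the minimum count in every library, which leaves it out, 18 were lower and 2 higher. COL18A1, a basement membrane proteoglycan chain that yields endostatin, read 30.3 and 27.9 CPM against 87.1 to 93.7 CPM (3.08-fold lower). The smallest of the 19 were COL6A1, COL7A1 and COL6A2, at 1.66-fold, 1.55-fold and 1.51-fold lower.

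COL17A1 went the other way, at 18.6 and 15.1 CPM in the knockout control against 8.81 and 6.29 CPM in scramble and 3.92 and 4.76 CPM in vector (2.94-fold higher, log2 1.56, adjusted p = 3.2e-06). COL9A2 was also called higher (log2 0.39, adjusted p = 0.037) but its libraries overlapped, and the call was lost without knockout control replicate 1, scramble replicate 1 or either vector library. COL4A4 lost its call without knockout control replicate 1, scramble replicate 2 or vector replicate 2. COL11A2, COL27A1, COL16A1, COL9A3 and COL10A1 were not called. The median collagen log2 change was -1.36 against 0.02 for all genes. All 12 mesenchymal markers were also lower in the knockout control (median log2 -2.31), and their part in the collagen difference was not tested. Doxycycline, the constructs and any batch differ together between the arms and cannot be told apart.

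**Figure D5:**
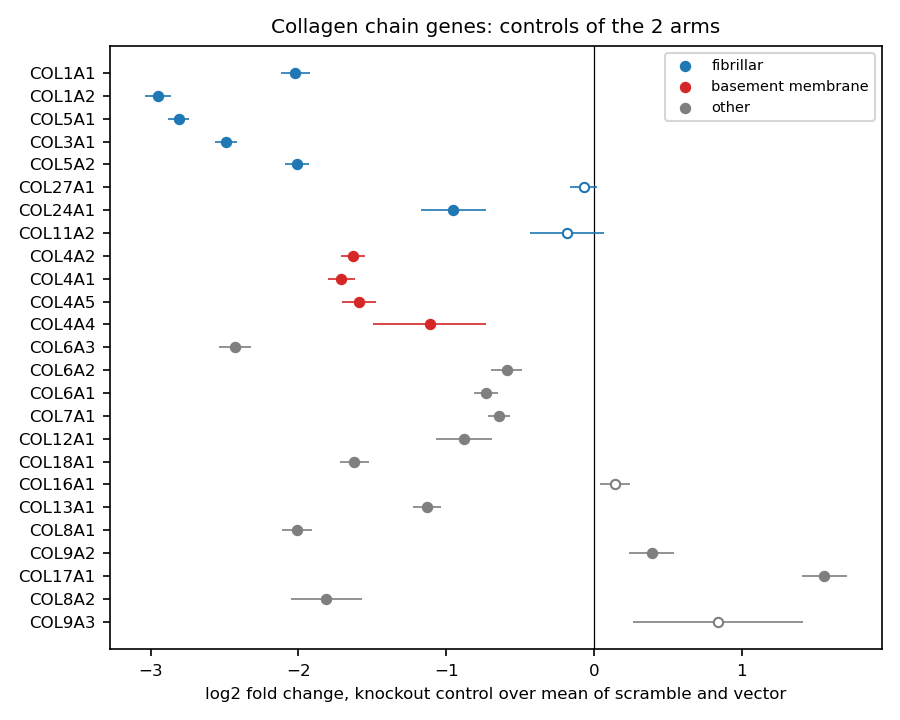
Log2 fold change with its SE of 25 collagen genes in the knockout control over the mean of scramble and vector, coloured by class; filled points passed edgeR's adjusted p of 0.05, and COL10A1 is left out for its low counts. All tested type IV and 6 of 8 fibrillar genes lie left of 0 and were called, and COL17A1 is highest. The difference of COL4A4, which passed the filter through 8 libraries, is partly built into the filter.

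Genes that act on collagen chains were read from 6 lists. In the knockout, 0 genes of the lists for hydroxylation and glycosylation (14 tested), folding and export (17), processing and cross-linking (10), receptors and uptake (10) and degradation (11) passed, and 1 of 12 fibril-associated partners did. That was DCN, decorin, at 34.9 and 31.8 CPM in the control and 51.8 and 55.8 CPM in the knockout (log2 0.69, adjusted p = 0.038), a call lost without knockout replicate 1 or 2. Without knockout control replicate 2 more genes were called in each list, in a fit with 1 control library. The share of all tested genes called in that fit is not given here.

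In the hydroxylation and glycosylation list, 1 gene rose and 1 fell with shRNA 1 against scramble, and 1 rose and 3 fell with shRNA 2, of 14 tested (9.41% and 7.74% of all tested genes were called). The first is near the share of all genes. The one that rose was P4HA1, a catalytic subunit of the prolyl hydroxylase that stabilises the collagen helix. It read 212 and 209 CPM in scramble, 642 and 603 CPM with shRNA 1, 641 and 625 CPM with shRNA 2, and 782 and 790 CPM in vector. Within the knockdown arm scramble alone was low, and the knockout arm read 220 and 252 CPM in the control and 268 and 260 CPM in the knockout. P4HA1 was higher with the hairpins than in scramble (log2 1.56 and 1.59, adjusted p = 4.6e-06 and 3.8e-06) and lower than in vector (log2 -0.34 and -0.31, adjusted p = 0.02 and 0.019, calls lost without any 1 of the 4 libraries). LEPREL1, a prolyl 3-hydroxylase now named P3H2 that acts on type IV collagen, fell against both controls, at 63.4 and 61.4 CPM with shRNA 1 and 47 and 46.2 CPM with shRNA 2, against 105 and 97.6 CPM in scramble and 82.4 and 81.8 CPM in vector. Its log2 changes were -0.70 and -1.12 against scramble (adjusted p = 5.6e-04 and 3.8e-05) and -0.39 and -0.82 against vector (adjusted p = 0.0095 and 4.3e-05). Only the shRNA 1 call against vector was lost without a library (any 1 of the 4). Against vector, 7.26% (shRNA 1) and 11.7% (shRNA 2) of all tested genes were called lower, and 5.78% and 9.21% higher. Of the list, 4 genes fell there with shRNA 1 and 5 with shRNA 2, and 0 rose. Without any 1 of the compared libraries those counts were 0 and 2 to 3, and the 4 calls for shRNA 2 against scramble became 2.

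In the folding and export list, 6 of 17 genes fell and 0 rose with each hairpin against scramble, where 5.01% (shRNA 1) and 4.15% (shRNA 2) of all tested genes were called lower. The list's median log2 change was -0.29 and -0.31, against 0 over all genes. KLHL12, the adaptor of a ubiquitin ligase that enlarges the COPII coats needed to export procollagen, read 19.9 and 21.4 CPM with shRNA 1 and 29.3 and 28.6 CPM with shRNA 2, against 37.3 and 37.4 CPM in scramble and 41.9 and 40.9 CPM in vector. It fell with shRNA 1 against scramble (log2 -0.85, adjusted p = 5.8e-04) and with both hairpins against vector (adjusted p = 1.2e-04 for shRNA 1, and log2 -0.52, adjusted p = 0.0027 for shRNA 2), calls kept without each library in turn. It was also called lower with shRNA 2 against scramble (log2 -0.37, adjusted p = 0.042), which was lost without any 1 of the 4 libraries. SERPINH1, the collagen chaperone HSP47, fell with shRNA 2 against scramble (log2 -0.62, adjusted p = 0.0086), a call lost without any 1 of the 4 libraries. HSPA5 and HSP90B1, general chaperones of the endoplasmic reticulum, fell by 0.31 to 0.50 on the log2 scale against scramble. Of these 4 calls, HSPA5 with shRNA 1 alone was kept throughout. HSP90B1 with shRNA 1 was lost without either scramble library or shRNA 1 replicate 2, and both genes with shRNA 2 were lost without any 1 of the 4 libraries. The counts of 6 became 2 to 3 with shRNA 1 and 0 to 1 with shRNA 2 without any 1 of the compared libraries.

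In the processing and cross-linking list the hairpins differed from each other in 6 of 10 genes, all higher with shRNA 1, where 7.07% of all tested genes were higher and 7.21% lower. They included PCOLCE2, an enhancer of procollagen cleavage (log2 1.44, adjusted p = 1.6e-04), and the lysyl oxidase family members LOXL4 (1.13, 5.2e-04), LOXL2 (0.54, 0.0015) and LOXL1 (0.67, 0.0027). PCOLCE2 read 18.1 and 22.2 CPM with shRNA 1, 7.28 and 7.46 CPM with shRNA 2, 11.2 and 11.2 CPM in scramble, and 23.9 and 24.6 CPM in vector. With shRNA 1 it rose against scramble (log2 0.84, adjusted p = 0.0041, lost without shRNA 1 replicate 2), and it was lowest with shRNA 2. Of all tested genes, 4.4% were called higher and 5.01% lower with shRNA 1 against scramble, and 3.58% and 4.15% with shRNA 2. Against scramble, 3 genes of the list rose with shRNA 1 and 3 fell with shRNA 2, and without any 1 of the compared libraries each count was 0 or 1. The count of 6 became 4.

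Among the proteases and inhibitors, MMP14, the membrane collagenase, read 4240 and 4020 CPM in scramble, 2400 and 2490 CPM with shRNA 1, 5880 and 6120 CPM with shRNA 2, and 2270 and 2210 CPM in vector. It fell with shRNA 1 (log2 -0.75, adjusted p = 0.0026) and rose with shRNA 2 (log2 0.54, adjusted p = 0.016) against scramble, the latter call lost without any 1 of the 4 libraries, and the hairpins differed by -1.29 (adjusted p = 8.6e-05). Of the 11 tested genes, 1 rose and 4 fell with shRNA 1 and 3 rose and 1 fell with shRNA 2 against scramble, falling to 1 or 2 and to 0 or 1 calls without any 1 library. The share of all tested genes called was 9.41% with shRNA 1 and 7.74% with shRNA 2. Scramble was higher than vector for 7 and lower for 0 (7.1% and 8.16% of all tested genes). Of the 10 receptors, 0 rose and 3 fell with shRNA 1 and 0 rose and 1 fell with shRNA 2 against scramble, the latter near the share of all genes. GPR56, which binds type III collagen, fell with both against scramble (log2 -0.79 and -0.86, adjusted p = 0.0065 and 0.0043), calls lost for shRNA 1 without scramble replicate 1 or shRNA 1 replicate 1 and for shRNA 2 without shRNA 2 replicate 1. Its means were 22.1 CPM in scramble, 12.8 with shRNA 1, 12.1 with shRNA 2 and 9.23 in vector, and the hairpins were not called against vector (log2 0.47 and 0.40, adjusted p = 0.07 and 0.091), while scramble was higher than vector (log2 1.26, adjusted p = 1.7e-04).

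Of the 12 fibril-associated partners, 1 rose and 3 fell with shRNA 1 and 4 rose and 3 fell with shRNA 2 against scramble (9.41% and 7.74% of all tested genes were called). NID1 and NID2, the nidogens that tie type IV collagen to laminin, fell with both hairpins against scramble. NID2 read 94.1 and 95.6 CPM in scramble, 68.1 and 69.2 CPM with shRNA 1, 54.9 and 56.1 CPM with shRNA 2, and 49.8 and 51.8 CPM in vector, so that scramble was the high group, as it was for COL4A1. NID1 read 305 and 308 CPM in scramble, 206 and 219 CPM with shRNA 1, 190 and 186 CPM with shRNA 2, and 267 and 281 CPM in vector, lower with the hairpins than with either control. The log2 changes of NID1 against scramble were -0.53 and -0.71 (adjusted p = 0.0093 and 0.0023), and those of NID2 -0.47 and -0.77 (adjusted p = 0.0063 and 4.3e-04). The shRNA 1 calls of NID1 and NID2 against scramble were lost without any 1 of the 4 libraries, and without any 1 of them 0 genes of the list were called with shRNA 1 and 4 with shRNA 2. The small proteoglycans DCN and LUM, which are also on the mesenchymal marker list, rose with shRNA 2 against scramble (log2 0.87 and 0.81, adjusted p = 1.3e-04 and 2.0e-04) and did not pass with shRNA 1 (log2 -0.08 and -0.24). Against vector both were higher with shRNA 1 (log2 2.14 and 1.19, adjusted p = 3.1e-07 and 1.5e-05) and with shRNA 2 (log2 3.09 and 2.24, adjusted p = 6.8e-09 and 6.5e-08). The lists and members were drawn up with results of these data known, so their directions are descriptions.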

How the data were processed

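RNA of 12 LMSU libraries in 6 groups of 2 was sequenced after preparation with an mRNA kit, per the labels' protocols. The authors deposited raw read counts per gene symbol, 1 column per library, with no normalisation. Per the submitters' processing notes, bcl2fastq, STAR 2.5 and the hg19 build were used. How reads were assigned to genes, with which annotation and strand setting, is not given in the sources used here.

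The analysis used edgeR 4.0.16 in R 4.3.3. Genes were kept by filterByExpr (minimum count 10), which left 13365 genes, and scaled with TMM. All 12 libraries were fitted together with 1 coefficient per group (6 residual degrees of freedom). Each contrast had a two-sided quasi-likelihood F test, with p adjusted by Benjamini-Hochberg over all tested genes in each comparison, and called at an adjusted p below 0.05. Replicates of every group differed by more than sampling noise (chi-square per degree of freedom 1.56 to 34.4). The procedure was tested on simulated data. Levels are TMM-normalised CPM; levels per kb used the spliced length of the principal transcript in GENCODE.

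Per-library values are given for members called in the knockout or a hairpin comparison and for the 3 with the highest mean in each class. From each pathway list, up to 4 called genes with the smallest adjusted p could be named. COL5A2, COL8A2, COL12A1, COL18A1 and the chains set against a partner were named as well, after their values were seen. The level of the targeted gene is not reported here. Members and lists were chosen with earlier results of these data known. Alternatives were DESeq2 1.42.0, limma-voom (limma 3.58.1), other size factors and filters, fewer libraries, a replicate block, a stricter threshold, and each library left out in turn, where a lone library is assumed to vary like the other groups. The alternatives for pathway genes and a crossed block were added after the data were seen. Figures were drawn with matplotlib 3.10.9.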

Additional observations from a re-analysis of the deposited data

Results flagged for a closer look

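A test of the difference between the knockout effect and the mean hairpin effect over scramble picked out 3 collagens. COL4A2 differed by 1.02 and COL4A1 by 0.96 on the log2 scale, with little change in the knockout (0.11 and 0.12) and a fall with the hairpins over scramble (-0.91 and -0.84). Scramble was the highest group for both genes. Over vector, COL4A1 changed by -0.27 with shRNA 1 and 0.23 with shRNA 2, and COL4A2 by -0.27 and -0.92. The difference from the knockout was not tested over vector. COL5A2 differed by 0.52, from 0.33 in the knockout and -0.19 with the hairpins, and lost its call in most alternatives. The arms also differ in doxycycline and constructs, and the part of either in these differences cannot be told apart.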

How the results depend on the processing

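Of 77 called values of collagen genes, recomputed under 1026 alternatives, 898 stayed past the threshold, 128 no longer passed, and 0 changed sign. For pathway genes and COL4A2-AS1, 2125 of 2433 stayed past it, 308 no longer passed and 0 changed sign. For the knockout, DESeq2 called 1 collagen and no filter 3, and leaving out a library gave 0 to 7. Without the filter, shRNA 2 against scramble gave 5 and the knockout minus hairpin difference 5. A threshold of 0.01 gave 6 for shRNA 1 against scramble, 8 for shRNA 2 against vector, 6 for scramble against vector and 7 for shRNA 1 against shRNA 2. With only the compared libraries, and with only the knockdown arm, whose spread is smaller, the calls were 10 and 10 for shRNA 2 against scramble, 14 and 15 for shRNA 1 against vector, 22 and 21 for shRNA 2 against vector, 18 and 18 for scramble against vector, and 21 and 20 for shRNA 1 against shRNA 2. The share of all tested genes called is not given here for any alternative in this section. Leaving out 1 library gave 6 to 6 for shRNA 1 against scramble, 1 to 2 for shRNA 2 against scramble, 4 to 4 for shRNA 1 and 6 to 8 for shRNA 2 against vector, 4 to 7 for scramble against vector, 5 to 7 between hairpins, 1 to 9 for the knockout minus hairpin difference, and 19 to 23 between arms. Fits to 1 arm alone were not run for comparisons that span both.

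Replicate numbers did not pair the libraries: the correlation of deviations passed 0.1 in 1 of 15 pairs of groups and ran from -0.47 to 0.16. It was under -0.1 in 3 pairs, and the -0.47 was that of the knockout control and the knockout. With a replicate block the counts were 0 for the knockout, 7 and 3 against scramble, 5 and 13 against vector, 8 for scramble against vector, 12 between hairpins, 2 for the difference and 20 between arms. In the knockout arm alone a block and a crossed block gave 0 each. Genes near the count minimum of 10, such as COL10A1 and COL4A4, are limited by depth.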
